A study of Mus musculus with 6 samples.

Results

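Rpl13a, Hprt, Gusb, B2m, Nono, Tbp and Tfrc are genes that laboratories commonly use as references, to which the amounts of other transcripts are scaled. They are 7 of the 15 genes with a named probe among the 60915 probes of a mouse lncRNA array, and were chosen by the name of their probe or, for Tfrc, by the RefSeq accession it carries. The array was hybridised with Cy3-labelled RNA of C2C12, an established mouse cell line derived from skeletal muscle that can be made to differentiate in culture, in 2 states. The 3 myoblast samples came from cells grown in DMEM with 10% fetal bovine serum, and the 3 myotube samples from cells that were switched to DMEM with 2% horse serum at 80 to 90% confluence. All 6 samples are of the same line, and the labels name no genetic change; how long the cells differentiated is not stated there. The series' design text calls the 3 arrays of a group separate experiments. A myotube culture usually keeps some mononucleated cells, and fewer cells of a kind cannot be told apart from less RNA per cell in bulk RNA. No probe is paired by name with a muscle marker gene, so the labelled states were not checked against markers.

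A reference gene serves its purpose when its transcript stays in a fixed proportion to the rest of the RNA. When myoblasts differentiate they leave the cell cycle, fuse and fill with contractile proteins, so transcripts tied to growth can shift against the rest. For this reason reference genes are judged by the ratios they keep with each other on the same sample. Such a ratio does not depend on a scaling that shifts all log2 values of an array by the same amount. A normalization that shifts bright and dim probes unequally can still move it.

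The genes have unlike tasks. Rpl13a encodes a protein of the large ribosomal subunit. Hprt encodes the enzyme of purine salvage that recycles hypoxanthine and guanine into nucleotides. Gusb encodes lysosomal beta-glucuronidase, and B2m the light chain that every classical MHC class I molecule carries at the cell surface. Nono encodes a nuclear RNA-binding protein of paraspeckles, Tbp the TATA-binding protein of basal transcription, and Tfrc the receptor that takes up iron-loaded transferrin. The message of Tfrc is known to be stabilised when cellular iron is low.

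The stretches just upstream of the gene start are shown for 4 of the genes: Rpl13a and Hprt, which fell, and Tfrc and B2m, whose ratio had the smallest SD within each group. They are taken from RefSeq windows of assembly GRCm38.p6, the 100 bases before the start on the strand of the gene, and capitals mark the letters CCAAT and GGGCGG on either strand.
Rpl13a, chr7:45128746-45128845, minus strand: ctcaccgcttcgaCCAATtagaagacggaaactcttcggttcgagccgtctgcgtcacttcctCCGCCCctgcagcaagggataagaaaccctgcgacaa
Hprt, chrX:52987978-52988077, plus strand: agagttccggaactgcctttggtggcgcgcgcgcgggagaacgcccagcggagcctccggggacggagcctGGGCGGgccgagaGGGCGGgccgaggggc
Tfrc, chr16:32608796-32608895, plus strand: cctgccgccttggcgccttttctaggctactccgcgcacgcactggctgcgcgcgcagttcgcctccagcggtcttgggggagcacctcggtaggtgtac
B2m, chr2:122147587-122147686, plus strand: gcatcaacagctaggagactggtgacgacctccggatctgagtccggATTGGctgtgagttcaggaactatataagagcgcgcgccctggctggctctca

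Over the 250 bases before the start, searched on both strands, GGGCGG stood at 2 places in Rpl13a, 2 in Hprt 1 in Tbp and 1 in the second Tfrc window. These letters are in 32.7% of 32851 mouse windows of that length. CCAAT stood at 2 places in Rpl13a, 2 in Nono, 1 in B2m and 1 in the first of the 2 Tfrc windows, against 33.8% of all windows. TATAAA was found once, in B2m, upstream of the stretch shown above, against 12.4% of all windows. The letters CANNTG stood once each in Rpl13a, Nono, Tbp and the first Tfrc window, against 66.2%. These are matches of letters and no measure of binding.

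Each gene was read from 20 spots of the same probe on every array. Nearly all other probes of the array had a single spot. All 840 spots of the 7 genes were well above background, none was saturated, and 70 were left out as outliers. The standard error over the spots used lay between 0.004 and 0.02 on the log2 scale. For B2m and Tfrc this is as large as the SD between myoblast arrays, which was 0.01. Levels are given as log2 signal minus the 75th percentile of the array, so a level of 0 is that percentile. The brightness of a probe depends on the probe as well as on the transcript, and levels of different genes were therefore not compared.

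The first comparison asked whether each reference gene kept its level between the cell states. Rpl13a and Hprt fell, and the other 5 genes did not pass the test. Among all 35487 probes tested, 50.4% passed the threshold of 0.05 for limma's adjusted p, 26.9% with a lower and 23.4% with a higher level in myotubes, so 2 called genes of 7 (28.6%) is a smaller share than that of the array. The median change of the 7 genes was −0.25, beside −0.07 for all tested probes. The groups did not overlap for 4 of the 7 genes, and for 61.4% of all tested probes.

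Rpl13a stood at 6.32, 6.27 and 6.29 on myoblast replicates 1, 2 and 3 and at 5.69, 5.76 and 5.50 on myotube replicates 1, 2 and 3. All 3 myotube arrays lay below all myoblast arrays, with a wide gap between the groups. The log2 change was −0.64 (SE 0.10, 95% interval −0.89 to −0.40, limma adjusted p = 0.00232), which left 64.0% of the myoblast level. Without each array in turn the change lay between −0.70 and −0.57, but with no scaling between arrays it was −0.36 and did not pass (limma adjusted p = 0.221).

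Hprt stood at 7.56, 7.62 and 7.62 in myoblasts and at 7.18, 7.12 and 6.83 in myotubes. The groups did not overlap, and myotube replicate 3 was the lowest. The change was −0.56 (SE 0.12, 95% interval −0.84 to −0.28, limma adjusted p = 0.00772), which left 67.8% of the myoblast level. With no scaling it was −0.28 and did not pass (limma adjusted p = 0.36). Both falls were smaller under the planned quantile normalization, at −0.45 for Rpl13a (limma adjusted p = 0.00939) and −0.28 for Hprt (0.0395). Cyclic loess, which follows brightness and was chosen after the data were seen, gave −0.43 for Rpl13a (limma adjusted p = 0.00608) and −0.28 for Hprt (0.0284).

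Gusb stood at 4.53, 4.59 and 4.56 in myoblasts and at 4.05, 4.46 and 4.27 in myotubes. Its groups did not overlap either, but the myotube arrays spread far more widely than the myoblast arrays, with an SD of 0.20 against 0.03. Its change of −0.30 (SE 0.12, 95% interval −0.60 to −0.01) missed the threshold (limma adjusted p = 0.0828). It passed without myotube replicate 2 (−0.40, limma adjusted p = 0.0348).

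B2m stood at 7.29, 7.28 and 7.27 in myoblasts and at 7.25, 7.07 and 6.77 in myotubes. Myotube replicate 1 lay beside the myoblasts and replicate 3 well below them. The change was −0.25 (SE 0.14, 95% interval −0.57 to 0.07, limma adjusted p = 0.166). It passed without myotube replicate 1 (−0.36, limma adjusted p = 0.0276) and was 0.02 under both quantile and cyclic loess normalization.

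Nono stood at 4.69, 4.62 and 4.62 in myoblasts and at 4.44, 4.67 and 4.52 in myotubes. The groups overlapped. Its change was −0.10 (SE 0.10, 95% interval −0.35 to 0.14, limma adjusted p = 0.434). Over the 6 arrays its SD of 0.098 was the smallest of the 7 genes, and 4.27% of the tested probes had a smaller one. Nono was averaged over up to 20 spots per array and nearly all of those probes were read from a single spot. The share therefore does not compare like measurements.

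Tbp stood at 2.29, 2.37 and 2.30 in myoblasts and at 1.96, 2.49 and 2.31 in myotubes. Myotube replicate 1 was the lowest of the 6 arrays and replicate 2 the highest, so the groups overlapped. Its change was −0.07 (SE 0.15, 95% interval −0.42 to 0.28, limma adjusted p = 0.727), and without myotube replicate 1 it was 0.08 (0.469).

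Tfrc stood at 7.52, 7.51 and 7.50 in myoblasts and at 7.70, 7.51 and 7.21 in myotubes. The myotube arrays lay on both sides of the myoblasts. Its change was −0.04 (SE 0.14, 95% interval −0.37 to 0.29, limma adjusted p = 0.822). This near-zero mean depended on the normalization: Tfrc rose by 0.27 under quantile normalization (limma adjusted p = 0.0268) and by 0.25 under cyclic loess (0.0375).

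**Figure D1:**
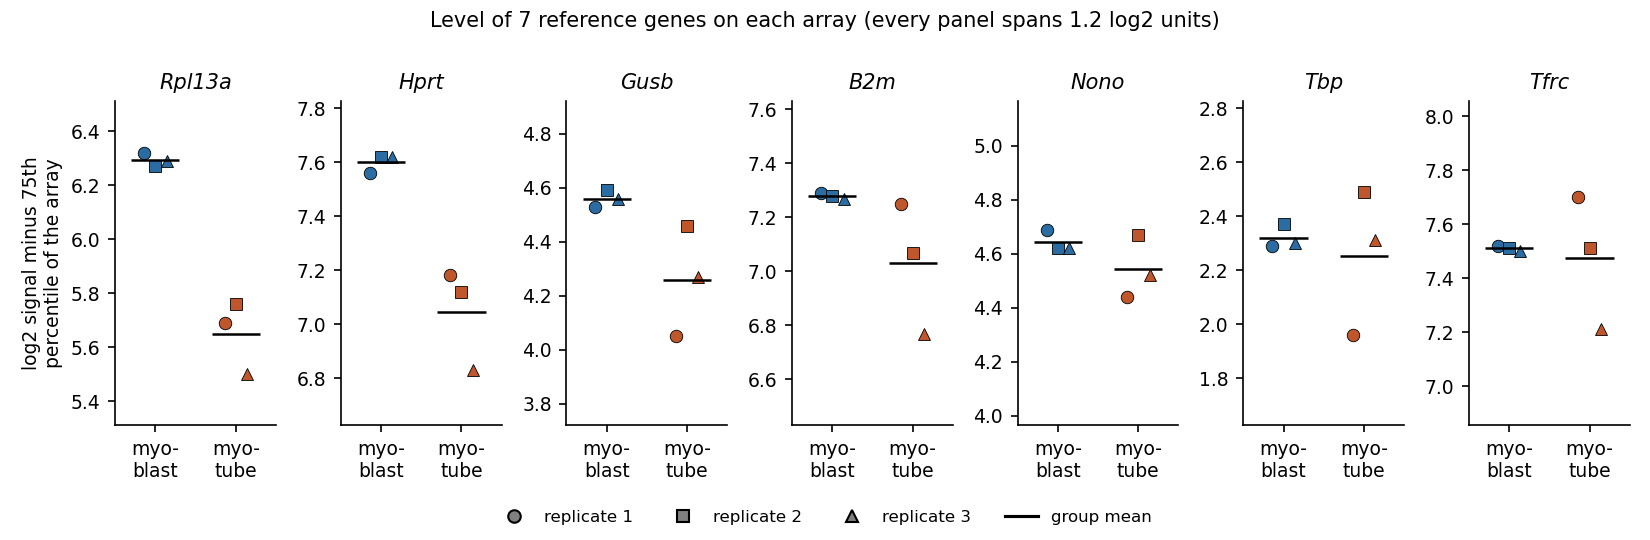
Level of each reference gene on each of the 6 arrays (vertical axis, log2 signal minus the 75th percentile of the array; every panel spans the same number of log2 units). Points are arrays, marker shapes are replicate numbers and lines are means of 3 arrays. Myoblast arrays sit close together for every gene. Rpl13a and Hprt are lower on all 3 myotube arrays, while Tfrc ranges from 7.21 to 7.70 in myotubes.

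The array names 8 more genes in the same way, not all of them common references. Of these, 5 fell (Actb, G6pd2, Ldhal6b, Tuba1b and Gk), 1 rose (Hsp90ab1) and Gapdh and Ppia did not pass. Their median change was −0.495. Ldhal6b was well above background in only 5 to 7 of its 20 spots on the myotube arrays, so its level there is a bound.

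The scan of the slides, read from the file headers, moved with part of the groups. Myotube replicate 1 was scanned with the 3 myoblast arrays, and myotube replicates 2 and 3 had a scan each. Within the shared scan the changes were −0.60 for Rpl13a, −0.51 for Gusb, −0.42 for Hprt, −0.36 for Tbp, −0.21 for Nono, −0.03 for B2m and 0.18 for Tfrc. These values set 1 myotube array against 3 myoblast arrays and are given with no test. Gusb thus lay further down on that array than Hprt, and Tfrc lay above the myoblasts.

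The second comparison asked which pairs of reference genes kept their ratio. There are 21 pairs. The log2 ratios on each array were fitted with the same model beside all probes, and p-values were adjusted over all 35508 rows. In myotubes 7 of the 21 ratios differed from myoblasts. All 7 set Rpl13a or Hprt against B2m, Nono, Tbp or Tfrc. Of the 10 ratios among Gusb, B2m, Nono, Tbp and Tfrc, 0 passed in limma and 2 had an unadjusted p under 0.05. That 0 became 5 without myotube replicate 1, 2 under normexp background correction, 2 under quantile normalization and 1 under cyclic loess. Within the shared scan, on 1 myotube array and with no test, these 10 ratios shifted by −0.69 (Gusb over Tfrc) to 0.33 (B2m over Tbp). The 7 called ratios shifted there by −0.78 (Rpl13a over Tfrc) to −0.22 (Hprt over Nono), so the 2 ranges overlapped in size. The share of 33.3% is read against the ratios of every tested probe to the same genes, of which 67.3% passed for Rpl13a, 58.9% for Hprt, 45.5% for Nono, 44.0% for Gusb, 39.6% for B2m, 37.5% for Tfrc and 33.4% for Tbp. A ratio shows that 2 transcripts changed unequally and not which of them moved. An exact permutation test of 3 against 3 arrays cannot give a two-sided p below 0.1.

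The ratios below are set to a mean of 0 in myoblasts, so that values are shifts of the log2 ratio and not amounts. Rpl13a over Tfrc showed the largest shift. It stood at 0.02, −0.02 and 0.00 in myoblasts and at −0.78, −0.54 and −0.49 in myotubes, which is a log2 shift of −0.60 (SE 0.11; adjusted p = 0.00408 in limma; exact permutation test, two-sided p = 0.1). The ribosomal protein transcript thus lost ground to the transferrin receptor transcript on all 3 myotube arrays, most on replicate 1.

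Rpl13a over Tbp stood at 0.06, −0.08 and 0.01 in myoblasts and at −0.24, −0.71 and −0.78 in myotubes. Its change of −0.58 (SE 0.16, limma adjusted p = 0.0205) was much smaller on myotube replicate 1, the only one in the scan of the myoblasts. The call was lost without myoblast replicate 1 or 3 and without myotube replicate 2 or 3.

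Rpl13a over Nono stood at −0.02, 0.00 and 0.02 in myoblasts and at −0.39, −0.57 and −0.67 in myotubes. The change was −0.54 (SE 0.11, limma adjusted p = 0.00514). Hprt over Tfrc stood at −0.05, 0.02 and 0.02 in myoblasts and at −0.61, −0.48 and −0.47 in myotubes. Its shift was −0.52 (SE 0.09; adjusted p = 0.00380 in limma). These ratios, with Rpl13a over Tfrc, passed without each array in turn.

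The other 3 called ratios were smaller. Hprt over Nono changed by −0.46 (limma adjusted p = 0.0258), Rpl13a over B2m by −0.39 (0.0218) and Hprt over B2m by −0.31 (0.0297). Hprt over Nono was −0.22 on myotube replicate 1, within the shared scan. Among the fits that left out 1 array, it passed only in that without myotube replicate 1. The calls of Rpl13a over B2m and Hprt over B2m were lost whichever myoblast array was left out. The count of called ratios was 3 without myoblast replicate 1 or 3, 4 without myoblast replicate 2 and 15 without myotube replicate 1.

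**Figure D2:**
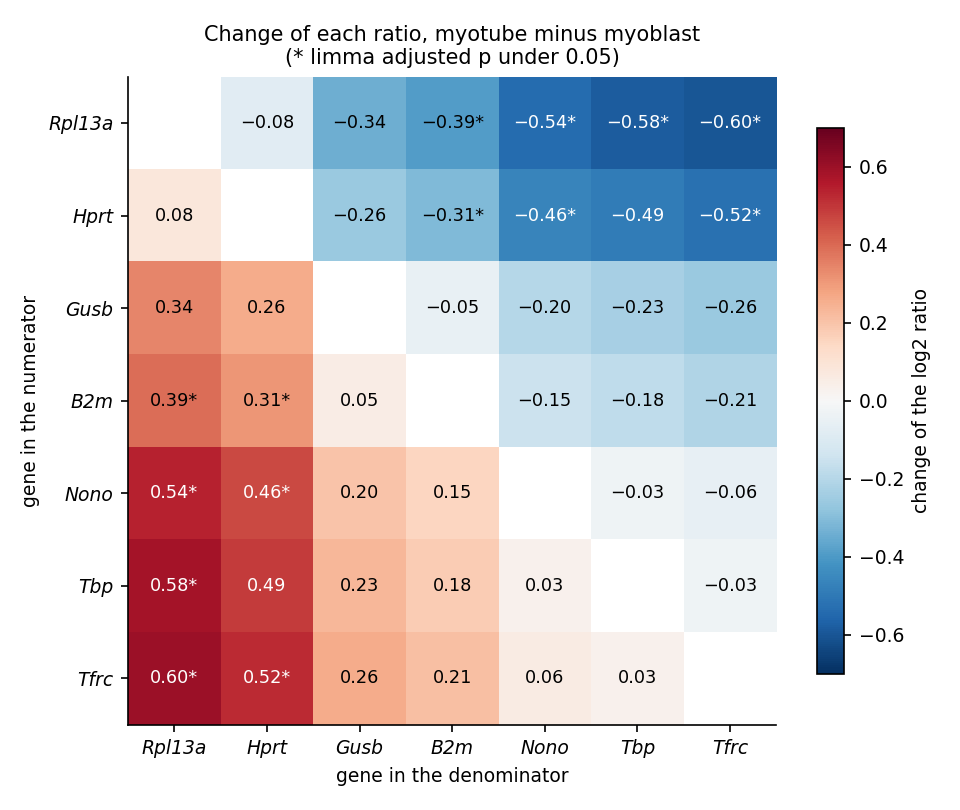
Change of the log2 ratio from myoblasts to myotubes for each pair, with the gene of the row over the gene of the column (colour scale in log2 units, means of 3 arrays per group). Stars mark limma adjusted p under 0.05. The 7 called pairs, each shown in both directions, all lie in the rows and columns of Rpl13a and Hprt.

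At the other end stood the 4 pairs with the smallest mean shifts. Tbp over Tfrc changed by −0.03, with a 95% interval of −0.54 to 0.49. It stood at −0.04, 0.05 and −0.01 in myoblasts and at −0.54, 0.17 and 0.29 in myotubes. The mean near 0 is therefore a balance of opposite shifts, and without myotube replicate 1 the ratio changed by 0.23 (limma adjusted p = 0.046).

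Gusb over B2m was of the same kind, at −0.04, 0.03 and 0.01 in myoblasts and at −0.48, 0.11 and 0.22 in myotubes, with a change of −0.05 (95% interval −0.49 to 0.39). Nono over Tfrc stood at 0.04, −0.02 and −0.02 in myoblasts and at −0.39, 0.03 and 0.18 in myotubes, with a change of −0.06 (95% interval −0.43 to 0.31). In all 3 ratios the low array was myotube replicate 1, which shared its scan with the myoblasts.

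Nono over Tbp was the tightest of these 4. It stood at 0.08, −0.07 and −0.01 in myoblasts and at 0.15, −0.14 and −0.11 in myotubes, so the groups overlapped. The change was −0.03 (95% interval −0.31 to 0.24, limma adjusted p = 0.822), which leaves room for a shift of up to 1.24-fold.

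The smallest SD over all 6 arrays belonged to another pair. Rpl13a over Hprt, the genes that fell, had an SD of 0.079, with values of 0.07, −0.04 and −0.02 in myoblasts and −0.18, −0.06 and −0.02 in myotubes. Its change was −0.08 (95% interval −0.31 to 0.14, limma adjusted p = 0.495). Among the 15 named genes each was the nearest to the other by this measure. A small SD of a ratio therefore went together with a fall of both genes against the rest of the array.

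B2m over Tfrc had the next smallest SD, 0.115, and was made up in another way. It was 0.00 on all 3 myoblast arrays (SD 0.003) and −0.22, −0.21 and −0.20 on the myotube arrays (SD 0.007). The groups were fully apart, and the shift of −0.21 was 1.16-fold (95% interval −0.41 to −0.01). It missed the threshold (limma adjusted p = 0.0808; exact permutation test, two-sided p = 0.1). The moderated test draws each spread toward that of all probes, here a prior SD of 0.162 with 2.95 degrees of freedom, and so gives a larger error than these SDs. The SDs lie below the error that the spots alone bring to the ratio on an array (SE 0.009 to 0.018), so their size is not resolved by the measurement. The ratio passed under normexp background correction, quantile and cyclic loess normalization and without myotube replicate 1. Gusb over Nono, at an SD of 0.129, changed by −0.20 (95% interval −0.43 to 0.04, limma adjusted p = 0.136).

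**Figure D3:**
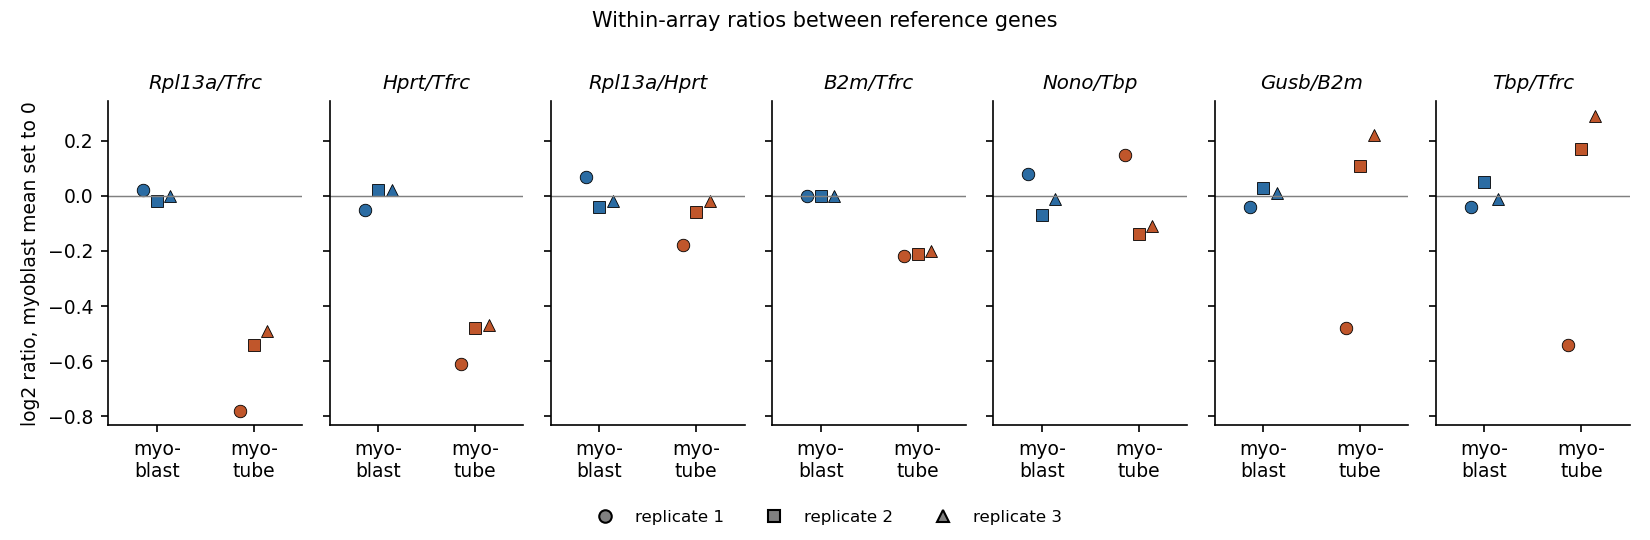
Log2 ratios of 7 pairs on each array, each set to a mean of 0 over the 3 myoblast arrays; points are arrays and marker shapes are replicate numbers. Rpl13a and Hprt over Tfrc fall on all 3 myotube arrays, B2m over Tfrc shifts by nearly the same amount on each of them, and Gusb over B2m and Tbp over Tfrc fall on myotube replicate 1 and rise on the other 2.

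Counted over all pairs, the 2 groups did not overlap in 12 of 21 ratios (57.1%). Of the ratios of all tested probes to these genes, 73.0% did not overlap for Rpl13a, 67.7% for Hprt, 57.9% for Nono, 55.9% for Gusb, 54.9% for B2m, 52.6% for Tfrc and 49.0% for Tbp. The SD of a ratio over 3 arrays was larger in myotubes for 21 of 21 pairs, with a median of 0.035 in myoblasts and 0.22 in myotubes. The pairs share 7 genes and are not separate observations. Ratios of the other tested probes to B2m also spread more in myotubes, with a median SD of 0.083 in myoblasts and 0.295 in myotubes. The 3 myoblast arrays shared a scan and the 3 myotube arrays did not, so cell state and scan cannot be told apart as sources of this spread.

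A common summary of stability is the mean SD of a gene's log2 ratios with the other 6, where a low value marks a steady gene. In myoblasts it ran from 0.030 for B2m and Tfrc to 0.050 for Tbp. In myotubes Rpl13a had the lowest value, 0.174, and Tbp the highest, 0.301. Over all 6 arrays Nono was lowest at 0.206, followed by Gusb at 0.210, B2m at 0.212, Hprt at 0.239, Tfrc at 0.252, Tbp at 0.262 and Rpl13a at 0.263. The last places were a near tie: without 1 array in turn the highest value belonged to Tbp (each myoblast array left out), to Tfrc (myotube replicate 2 or 3) or to Rpl13a (myotube replicate 1). The first 3 places in this order differ by less than the values moved when 1 array was left out, which for Nono ran from 0.181 to 0.221, for Gusb from 0.150 to 0.224 and for B2m from 0.160 to 0.227.

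When the least steady gene was removed step by step, Rpl13a went first, then Hprt, Tfrc, B2m and Gusb, and Nono with Tbp remained at 0.116. The first removal rested on 0.263 for Rpl13a against 0.262 for Tbp, so the order is not settled by these arrays.

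The levels of the bright probes moved with the array, and this touches the genes above. Ordered by mean log2 signal, Tfrc (16.17), then Hprt, B2m (15.83) and Rpl13a (14.65) were among the brightest 5.08% of tested probes, Nono (13.27) and Gusb (13.09) stood lower, and Tbp (10.97) was the dimmest. On myotube replicate 3, Tfrc lay 0.27, B2m 0.26 and Hprt 0.21 below the mean of the 3 myotube arrays, while Gusb and Tbp lay 0.01 and 0.05 above it. The 677 tested probes with a mean log2 signal of 16 and over had a median of −0.27 on that array, and 0.23 on myotube replicate 1.

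**Figure D4:**
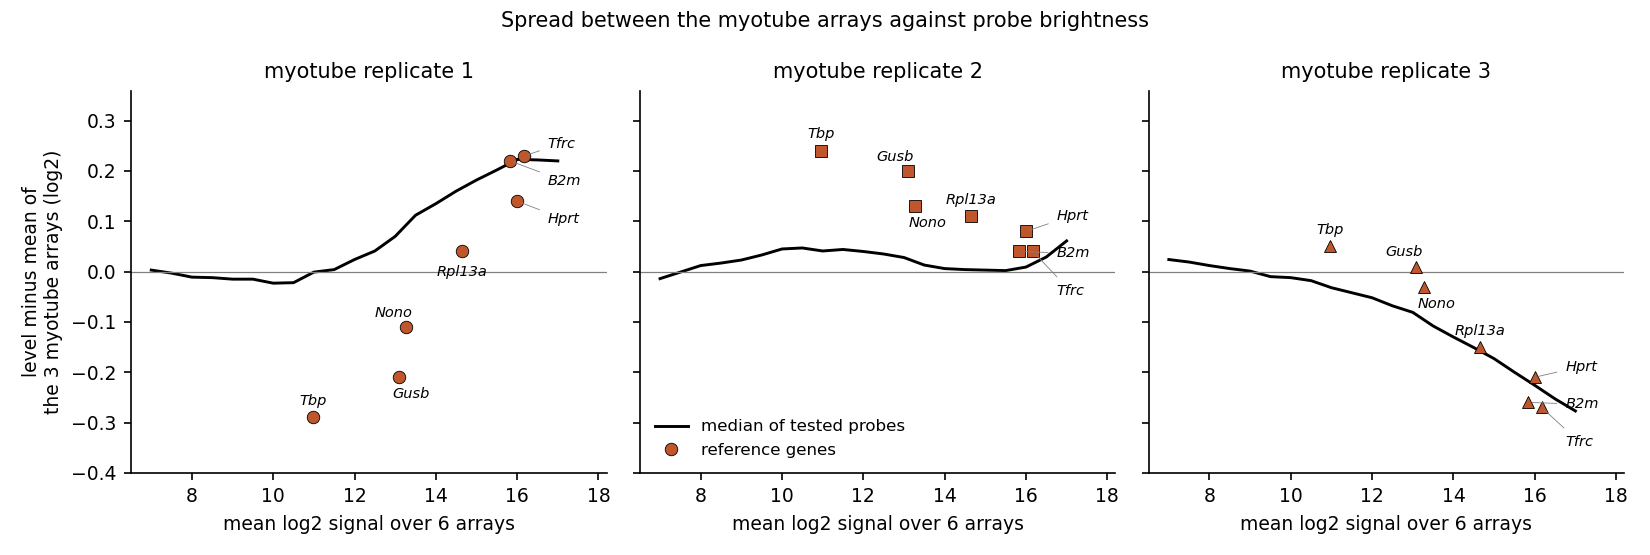
Level on each myotube array minus the mean of the 3 myotube arrays (vertical axis, log2) against mean log2 signal over 6 arrays (horizontal axis). Points are the 7 reference genes and the line is the running median of all tested probes. On myotube replicate 3 the 4 brightest genes lie close to the line, which falls toward −0.27 for the brightest probes, and Tbp, Gusb and Nono lie above it. On replicate 1 Tfrc and B2m lie on the line and the other 5 genes below it.

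The changes between the cell states also followed brightness. The median change was −0.05 for tested probes with a log2 signal of 6 to 8, −0.31 for those of 15 to 16 and −0.41 for those of 16 and over. Set against probes within 0.5 log2 units of its own brightness, Rpl13a was 0.43 lower than their median and Hprt 0.21 lower. A still lower change was found in 22.1% of the neighbours of Rpl13a and 25.1% of those of Hprt. Tfrc was 0.32 higher than the median of its 559 neighbours, of which 80.0% had a lower change. B2m (0.07), Nono (0.06), Tbp (−0.05) and Gusb (−0.15) lay closer to theirs. The part of brightness in the changes of these genes was not tested beyond the normalizations that follow it.

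The third comparison used each gene in turn as the only reference. Scaling to a gene subtracts its level on each array, so any shift of the gene is passed on to all probes. Scaled to the 75th percentile, 8321 probes were higher in myotubes and 9559 lower, and 46.5% of the called probes were higher. Scaled to Tfrc, 6330 were higher and 6975 lower, a share of 47.6%. Scaled to Nono, 9610 were higher and 6536 lower, a share of 59.5%, and scaled to Tbp 7388 and 4448, a share of 62.4%.

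Increases outnumbered decreases with every single reference but Tfrc, and by most with the 2 genes that fell. Scaled to Rpl13a, 21284 probes were higher and 2583 lower, so that 89.2% of calls were increases, and the median change of all tested probes moved from −0.07 to 0.58. Of the probes that also passed at the 75th percentile, 333 were called in the opposite direction. Scaled to Hprt, 18052 were higher and 2843 lower (86.4%), with a median change of 0.49. B2m (9438 higher, 4620 lower, 67.1%) and Gusb (12028 and 3590, 77.0%) lay between, with medians of 0.18 and 0.23.

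The number of calls ran from 11836 when scaled to Tbp, the gene with the widest spread in myotubes, to 23867 when scaled to Rpl13a. Scaled to the mean of all 7 genes, 12658 probes were higher and 4829 lower (72.4%), and the median change was 0.21. With that scale 1 of the 7 genes passed, Rpl13a, and Hprt no longer did (−0.28, limma adjusted p = 0.0691).

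**Figure D5:**
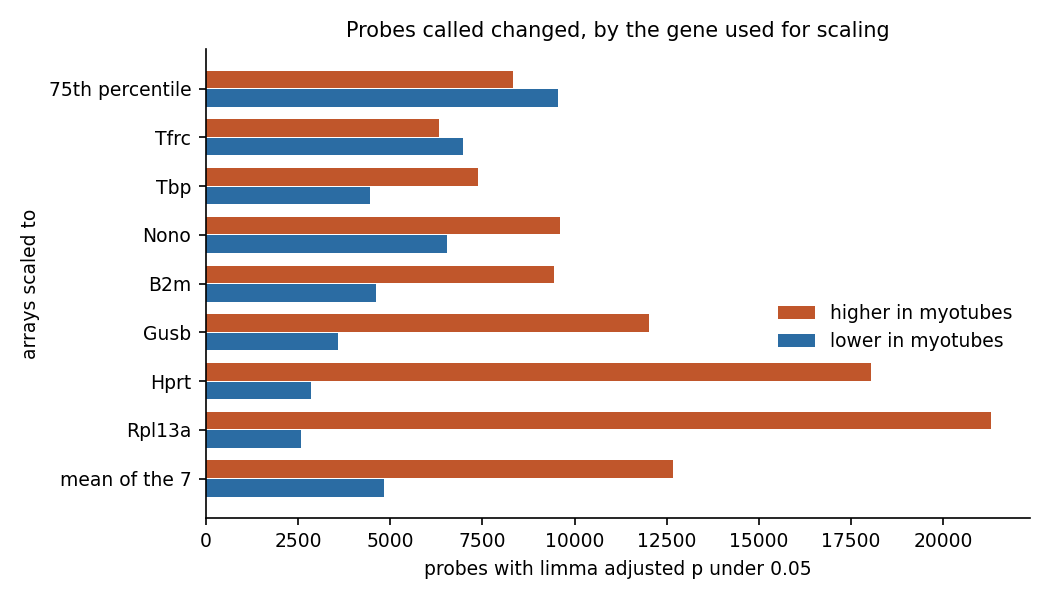
Number of probes past the threshold in limma (horizontal axis), higher or lower in myotubes, when the arrays were scaled to the 75th percentile, to each reference gene or to the mean of the 7. Increases outnumber decreases most when Rpl13a or Hprt is the reference, and decreases outnumber increases only with the 75th percentile and Tfrc.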

How the data were processed

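The deposited scanner files hold intensity values for 62939 spots per array, of which 1439 were control spots. Per the file headers, Agilent Feature Extraction 11.0.1.1 made these values from 1-colour scans, on a design for mouse build mm9. Per the labels' protocols, the RNA was depleted of rRNA and labelled by random priming. Normalization between arrays by the authors: not given in the sources used here.

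Spots flagged as outliers, and 300 spots of 15 probes with a negative-control name, were left out. Log2 processed intensity was averaged over the spots of a probe and the 75th percentile of the array subtracted. Probes well above background (for several spots, most of them) on at least 3 of 6 arrays were tested, 35487 of 60915. Groups were compared with lmFit and eBayes of limma 3.58.1 (R 4.3.3) with Benjamini-Hochberg adjustment; all adjusted p-values are from limma. The steps were tested on simulated data with independent noise and no effect of scan or brightness. The shift planted there in Rpl13a was larger than any change of the 7 genes found here. Each array was 1 replicate, and the number of arrays limits the precision. Stability values and ratios were computed from log2 intensity before scaling. Gene names came from the RefSeq table of assembly GRCm38.p6, in which all 15 accessions matched; promoter windows were matched by symbol for all 7 genes. Plots were made in Python 3.11.15 with matplotlib 3.10.9.

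The genes, gene lists and comparisons were chosen with earlier results of these data known. Named are all 7 genes and, of the 21 ratios, up to 4 each with the largest called change, the smallest change and the smallest SD; for likeness, the named gene with the smallest SD of the log2 ratio. Alternatives covered background correction, spot averaging, outlier flags, filters, scan, replicate number, variance model, normalization and each array left out.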

Additional observations from a re-analysis of the deposited data

How the results depend on the processing

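Planned normexp on mean spot signals was not run, because the files carry median signals; normexp on median signals and cyclic loess were chosen after seeing the data. Replicate numbers did not pair the samples: same-numbered arrays correlated at −0.15, 0 and −0.09. With replicate number as a block, 2 genes, 5 ratios and 16538 probes passed. The count of genes that passed, 2, became 4 with scan as a block (a fit in which 1 myotube array is assumed to vary like the myoblasts), 0 without scaling, 4 scaled to Rpl13a, 0 scaled to Gusb or B2m, and 1 scaled to Tbp or to the mean of the 7 genes, and was 2 to 3 without each array in turn. The count of ratios, 7, became 3 with no filter on dim probes and 3 to 15 without each array in turn; 5 passed when each gene was scaled to its partner in both orders. The count of probes, 17880, became 11836 scaled to Tbp and 13566 to 22931 without each array in turn. The cause of these shifts was not tested.

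These log2 changes turned sign. Scaled to Rpl13a they were 0.08 for Hprt, 0.34 for Gusb, 0.39 for B2m, 0.54 for Nono, 0.58 for Tbp and 0.60 for Tfrc. Scaled to Hprt they were 0.26 for Gusb, 0.31 for B2m, 0.46 for Nono, 0.49 for Tbp and 0.52 for Tfrc. Scaled to Gusb they were 0.05 for B2m, 0.20 for Nono, 0.23 for Tbp and 0.26 for Tfrc; scaled to B2m 0.15 for Nono, 0.18 for Tbp and 0.21 for Tfrc; scaled to Nono 0.03 for Tbp and 0.06 for Tfrc; and scaled to Tbp 0.03 for Tfrc. Scaled to the mean of the 7 genes they were 0.03 for B2m, 0.18 for Nono, 0.21 for Tbp and 0.24 for Tfrc, and without scaling 0.03, 0.18, 0.22 and 0.24. By construction the values scaled to a gene or to the mean of the 7 genes follow the change of that reference. Those without scaling keep the differences between the arrays in signal. Under quantile normalization they were 0.02 for B2m, 0.03 for Nono and 0.27 for Tfrc, and under cyclic loess 0.02, 0.05 and 0.25. Tfrc was 0.01 with normexp and 0.18 with scan as a block. Among ratios, scan as a block gave 0.08 for Hprt over Gusb, 0.18 for B2m over Nono, 0.33 for B2m over Tbp and 0.15 for Nono over Tbp; quantile normalization gave 0.06 for B2m over Tbp and 0.07 for Nono over Tbp, and cyclic loess 0.04 and 0.07. Without each array in turn, Tbp ran from −0.19 to 0.08, Tfrc from −0.15 to 0.09, Gusb over B2m from −0.18 to 0.16, Nono over Tbp from −0.13 to 0.02, Nono over Tfrc from −0.18 to 0.10 and Tbp over Tfrc from −0.19 to 0.23. Of the other changes, 403 kept direction and side of the threshold, 32 no longer passed and 23 newly passed. All spots of the 7 genes were well above background and unsaturated; the part of brightness in their changes was not tested.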

Other observations

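The ratio of B2m to Tfrc was looked at further after its values were seen. Of the 35486 other tested probes, 0 had ratios to B2m with SDs as small as those of Tfrc in both groups (0.003 and 0.007), beside medians of 0.083 in myoblasts and 0.295 in myotubes. For the ratios to Tfrc the number was also 0. Nearly all of these other probes were read from a single spot per array, and B2m and Tfrc from up to 20. The SDs are therefore not of like measurements. The spots alone bring an SE of 0.009 to 0.018 to this ratio on an array, so SDs this small are below what the spots resolve. In myotubes alone, 10 probes were as steady against B2m and 7 against Tfrc.

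The named gene whose pattern was most like that of B2m was Ppia, a peptidyl-prolyl isomerase, with an SD of the log2 ratio of 0.067 over 6 arrays, followed by the glycolytic enzyme gene Gapdh at 0.101. Like B2m, both have bright probes, and the levels of bright probes in general moved with the myotube array. The part of brightness in this likeness was not tested. B2m over Ppia, set to a mean of 0 in myoblasts, stood at −0.02, 0.02 and 0.00 in myoblasts and at 0.17, 0.05 and 0.06 in myotubes. B2m over Gapdh stood at −0.03, 0.02 and 0.00 in myoblasts and at 0.12, 0.11 and 0.25 in myotubes. In both ratios the groups did not overlap (two-sided p = 0.1 by an exact permutation test, its lower limit for this design). The groups also did not overlap in the ratios of 54.9% of all tested probes to B2m. For Rpl13a and Hprt the second nearest named gene was the tubulin gene Tuba1b, at 0.121 and 0.101.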
